A study of Mus musculus with 6 samples.

Results

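The genes described here are 8 that carry the MHC class II antigen presentation route of mouse cells, measured in bulk liver RNA. They were taken by name as rows of the deposited count table, and all 8 were found among its 35977 genes and passed the filter on low counts. H2-Aa, H2-Ab1 and H2-Eb1 encode chains of the class II molecules, H2-DMa and H2-DMb1 the chains of the peptide exchanger H2-DM, Cd74 the invariant chain, Ciita the class II transactivator and Ctss the protease cathepsin S. The set was chosen by name and function, with earlier values of the same comparison known, and so counts as selected on the fold changes of H2-DMa, H2-Ab1, Cd74 and H2-Eb1 in particular. Their differences between the groups are therefore given as a description, with no test.

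The 6 livers had received AAV9, an adeno-associated virus that delivers a gene, with Cre recombinase under the promoter of Tnnt2, the gene of cardiac troponin T. The group called Cre (labelled AAV-Tnnt2-Cre, replicates 10, 11 and 12) had this vector. The group called Cre-miR122 (AAV-Tnnt2-Cre-miR122, replicates 1, 2 and 4) had a version with sites that miR-122 can bind, a microRNA of hepatocytes, and the study asked how those sites affect the liver. Every group carries a Cre vector, no library without vector was compared, and the labels used here give no strain, age, sex, dose or time. The labels do not say that the libraries came from separate animals, so the spread between them may be partly technical.

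MHC class II molecules show peptides from endosomes to CD4 T cells. Professional antigen-presenting cells, that is dendritic cells, B cells and macrophages, make them constantly, and many other cells make them after interferon-gamma. The α and β chains assemble on the invariant chain, cathepsin S and other proteases cut the invariant chain down to a fragment in the groove, and H2-DM exchanges that fragment for a peptide. Transcription of the class II chain, H2-DM and invariant chain genes depends largely on CIITA. This factor does not bind DNA itself but joins RFX, CREB and NF-Y on the X and Y boxes of class II promoters. Hepatocytes, which give most of the RNA of a liver, are not professional antigen-presenting cells.

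Promoter sequences are shown because the class II genes share this arrangement of boxes. RefSeq windows of GRCm38.p6, from 250 bases before to 50 after an annotated start, were held for 5 of the 8 genes. Printed 5′ to 3′, the capitals mark AAC, letters of the X box core, and GATTGG, which holds the Y box (ATTGG, the reverse complement of CCAAT). In Ctss they mark a match to GAAANNGAA, a motif of interferon-responsive genes. H2-DMb2, the neighbouring copy of H2-DMb1, is added for comparison.
H2-Aa (chr17:34287859-34287908, minus strand): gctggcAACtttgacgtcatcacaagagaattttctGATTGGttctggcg
H2-Eb1 (chr17:34305772-34305820, plus strand): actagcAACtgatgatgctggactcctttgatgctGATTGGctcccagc
H2-DMb1 (chr17:34153093-34153142, plus strand): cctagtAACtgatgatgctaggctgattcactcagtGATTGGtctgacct
H2-DMb2 (chr17:34145122-34145171, plus strand): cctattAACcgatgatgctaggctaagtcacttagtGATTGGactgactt
Ctss (chr3:95526745-95526793, plus strand): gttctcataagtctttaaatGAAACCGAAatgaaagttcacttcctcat

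The pair was searched on both strands as AAC, then 20 to 35 bases, then GATTGG, a form chosen after the windows were read. It was present in 7 of the 8 class II chain genes for which a window was held (H2-Aa, H2-Eb1, H2-DMb1, H2-DMb2, H2-Oa, H2-Ob and H2-Eb2), with 24 to 27 bases between its parts in the pair whose spacing was nearest to 27, and H2-Eb1 and H2-Oa held another pair each. Of all 32851 windows 2.95% held it, and 37.4% held ATTGG alone, which the pair contains. GATTGG began at -49 in H2-Aa, -60 in H2-Eb1 and -62 in H2-DMb1, counted from the annotated start. The eighth gene, H2-DMa, had no pair in either of its windows, which lie at starts upstream of most of its exons. The Ctss window held no ATTGG on either strand, and its match to GAAANNGAA, present in 8.56% of windows, began at -21. A match in these letters is a description of the sequence, not a bound site.

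The libraries were even in depth, with 20340994 to 20817837 counts each. The Cre transcript had 37 to 61 counts in the Cre libraries and 10 to 16 in the Cre-miR122 libraries, which follows the labels. Liver identity was clear, as albumin (Alb) alone took 106630 ± 12089 CPM with the Cre vector (read counts scaled to library size by TMM, SD, n = 3) and 112160 ± 2636 CPM with Cre-miR122. Cre replicate 10 differed from the other 5 libraries in sex-linked RNA, with 5 counts of Xist against 15778 to 22413. It had 1676 counts of Ddx3y, a gene of the Y chromosome, against 0 or 1. This male pattern places it in another animal than the other 5 libraries. By RNA the Cre group thus mixed the sexes, while the Cre-miR122 libraries all had the female pattern. Cre replicate 11 stood apart for the class II genes, and each result below is given with and without it where it matters. The 8 genes together took 2284 to 3956 counts in the Cre libraries and 1618 to 2250 in the Cre-miR122 libraries, at most 0.0195% of a library.

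Per kilobase of exon the invariant chain and cathepsin S were the most abundant. Over the 6 libraries Cd74 stood at 24.6 ± 10.1 RPKM (CPM per kilobase of exon, SD, n = 6) and Ctss at 23.6 ± 4.28 RPKM. Their order differed between the groups, with means of 30.8 and 25.3 RPKM with Cre and of 18.3 and 21.9 RPKM with Cre-miR122. The class II chains followed, with H2-Aa at 14.01 ± 4.55 RPKM, H2-Ab1 at 10.2 ± 3.71 RPKM and H2-Eb1 at 7.09 ± 2.58 RPKM. That order held within each of the 6 libraries. H2-DMb1 was at 2.35 ± 0.548 RPKM and H2-DMa at 0.594 ± 0.184 RPKM. The level per length of H2-DMa rests on a deposited length of 6798 bases, against 1284 for H2-DMb1. Ciita was lowest at 0.188 ± 0.0744 RPKM, with a deposited length of 7511 bases. Among the 14374 genes tested, Cd74 lay at percentile 87.1 of the level per length and Ciita at percentile 4.49.

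**Figure D1:**
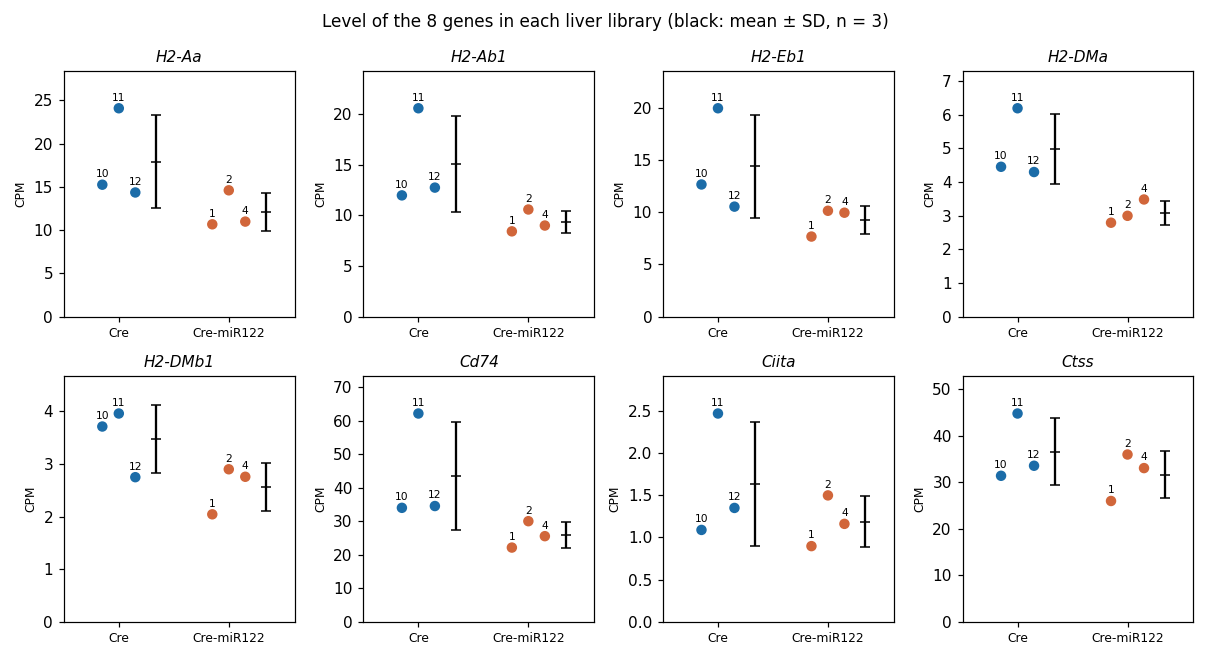
Level of each of the 8 genes in CPM (vertical axis from 0, a scale of its own for each gene) in the Cre libraries (blue) and the Cre-miR122 libraries (orange), with the replicate number above each point and the mean ± SD in black (n = 3). Cre replicate 11 is the highest library and Cre-miR122 replicate 1 the lowest in all 8 panels, and the groups do not overlap for H2-Ab1, H2-Eb1, H2-DMa and Cd74.

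The classical class II chains had lower means in the Cre-miR122 livers, and none of them was called. H2-Ab1, the β chain of the I-A molecule, was at 11.97, 20.6 and 12.7 CPM in Cre replicates 10, 11 and 12 and at 8.42, 10.6 and 8.99 CPM in Cre-miR122 replicates 1, 2 and 4. The groups did not overlap, and the log2 fold change (Cre-miR122 minus Cre) was -0.70 (SE 0.20), a level 1.62-fold lower. H2-Aa, the I-A α chain, was at 15.2, 24.1 and 14.3 CPM with Cre and at 10.7, 14.6 and 10.98 CPM with Cre-miR122. Here Cre-miR122 replicate 2 lay above Cre replicate 12, so the groups overlapped, and the log2 fold change was -0.57 (SE 0.20). H2-Eb1, the β chain of the I-E molecule, was at 12.7, 19.98 and 10.5 CPM with Cre and at 7.67, 10.1 and 9.96 CPM with Cre-miR122. These groups did not overlap, but the nearest libraries of the 2 groups had overlapping counting intervals, as they also had for H2-Ab1, H2-DMa and Cd74. Cre replicate 12 had 211 counts of H2-Eb1 (95% Poisson interval 9.17 to 12.1 CPM) and Cre-miR122 replicate 2 had 210 (8.82 to 11.6 CPM). The log2 fold change of H2-Eb1 was -0.64 (SE 0.22). Without Cre replicate 11 the log2 fold changes were -0.41 for H2-Ab1, -0.29 for H2-Aa and -0.33 for H2-Eb1. The I-E α chain appears in the table only as the pseudogene H2-Ea-ps, with 1 count in 1 of the 6 libraries.

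The invariant chain showed the largest difference of the 8 genes with all 6 libraries. Cd74 was at 34.04, 62.2 and 34.6 CPM with Cre and at 22.2, 30.1 and 25.6 CPM with Cre-miR122. The groups did not overlap, and the log2 fold change was -0.75 (SE 0.22), or -0.40 without Cre replicate 11. The proportion of Cd74 to H2-Ab1 varied less than either level. In kilobase-corrected terms there were 2.22 to 2.55 Cd74 reads per H2-Ab1 read in the 6 libraries, and the group means, 2.41 ± 0.131 with Cre and 2.34 ± 0.102 with Cre-miR122 (SD, n = 3 each), differed by less than that spread. H2-Aa stood to H2-Ab1 at 1.26 to 1.54 and H2-Eb1 to H2-Ab1 at 0.591 to 0.792. These ratios do not depend on library scaling.

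The 2 chains of the peptide exchanger H2-DM differed from each other in how clearly the groups separated. H2-DMa was at 4.45, 6.19 and 4.30 CPM with Cre and at 2.79, 2.995 and 3.48 CPM with Cre-miR122. The groups did not overlap, the log2 fold change was -0.69 (SE 0.19), and without Cre replicate 11 it was -0.50, the largest of the 8 genes in that setting. H2-DMb1 was at 3.71, 3.96 and 2.75 CPM with Cre and at 2.04, 2.90 and 2.76 CPM with Cre-miR122. Cre replicate 12 lay below Cre-miR122 replicates 2 and 4, and the log2 fold change was -0.44 (SE 0.21). H2-DMb1 counts are uncertain, because 22.7% of its 50-base stretches in GENCODE M21 transcripts also occur in H2-DMb2. Among the other 7 genes only H2-Aa shared any (0.488%).

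The transactivator and the protease differed least from even levels once Cre replicate 11 was set aside. Ciita had 22, 53 and 27 counts with Cre and 18, 31 and 24 with Cre-miR122, and the groups overlapped. Its log2 fold change was -0.47 (SE 0.34), and -0.039 without Cre replicate 11. Cre replicate 11, at 2.47 CPM (95% Poisson interval 1.85 to 3.23 CPM), lay above all other libraries, the next being Cre-miR122 replicate 2 at 1.498 CPM (1.02 to 2.13 CPM). Ctss was at 31.4, 44.8 and 33.5 CPM with Cre and at 26.0, 35.9 and 33.0 CPM with Cre-miR122, again overlapping, with a log2 fold change of -0.21 (SE 0.16) and of -0.037 without Cre replicate 11. Cathepsin S also serves other endosomal work, and its proportion to H2-Ab1 differed between the groups. There were 0.461 to 0.558 H2-Ab1 reads per Ctss read with Cre and 0.330 to 0.393 with Cre-miR122, per kilobase, with no overlap. H2-Ab1 is among the genes counted as selected on their fold changes, so the ratio restates that difference and adds no separate evidence.

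**Figure D2:**
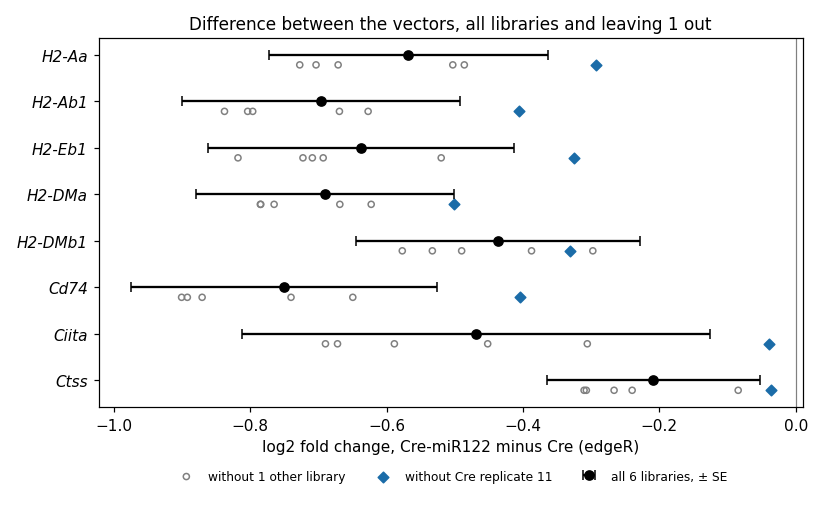
Log2 fold change of each gene (horizontal axis, Cre-miR122 minus Cre, edgeR) with all 6 libraries (black, ± SE), without Cre replicate 11 (blue diamonds) and without each of the other libraries (open circles). All values lie below 0, and Ciita and Ctss come closest to it, at -0.039 and -0.037 without Cre replicate 11.

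The log2 fold change was negative for all 8 genes (median -0.60, from -0.75 to -0.21), where 50.6% of the 14374 genes tested lay below 0 with a median of -0.0029. The edgeR quasi-likelihood test called 0 genes of the table at an adjusted p under 0.05 (0%, smallest adjusted p = 0.816), so none of the 8 was called, and DESeq2 (3 calls) and limma-voom (0 calls) called none of them either. Taken without adjustment, a p under 0.05 was given by edgeR to 778 genes, 397 higher and 381 lower. Of the 8 genes 5 were among the lower ones (H2-Aa, H2-Ab1, H2-Eb1, H2-DMa and Cd74), against 2.65% of all genes. The groups did not overlap, with Cre-miR122 lower, for 4 of the 8 and for 5.44% of all genes. Without Cre replicate 11 these were again 4 of the 8, against 8.79% of all genes, and the median of the 8 was -0.33. Because the genes were picked with this comparison in view, nothing is read from these counts.

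Cre replicate 11 was the highest and Cre-miR122 replicate 1 the lowest library for each of the 8 genes. Their mean deviation from the 6-library average (log2 CPM) was 0.70 in Cre replicate 11, 0.058 in Cre replicate 10 and 0.018 in Cre replicate 12. It was -0.069 in Cre-miR122 replicate 2, -0.22 in replicate 4 and -0.49 in replicate 1. So 1 library of each group set the ends, and Cre replicates 10 and 12 lay close to Cre-miR122 replicate 2. H2-Aa followed this mean most closely, with a root mean square difference of 0.083 on the log2 scale, and Ctss least, with 0.177. Ciita differed from it by 0.174, mostly in Cre replicate 10, where it was 0.28 below its own average.

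**Figure D3:**
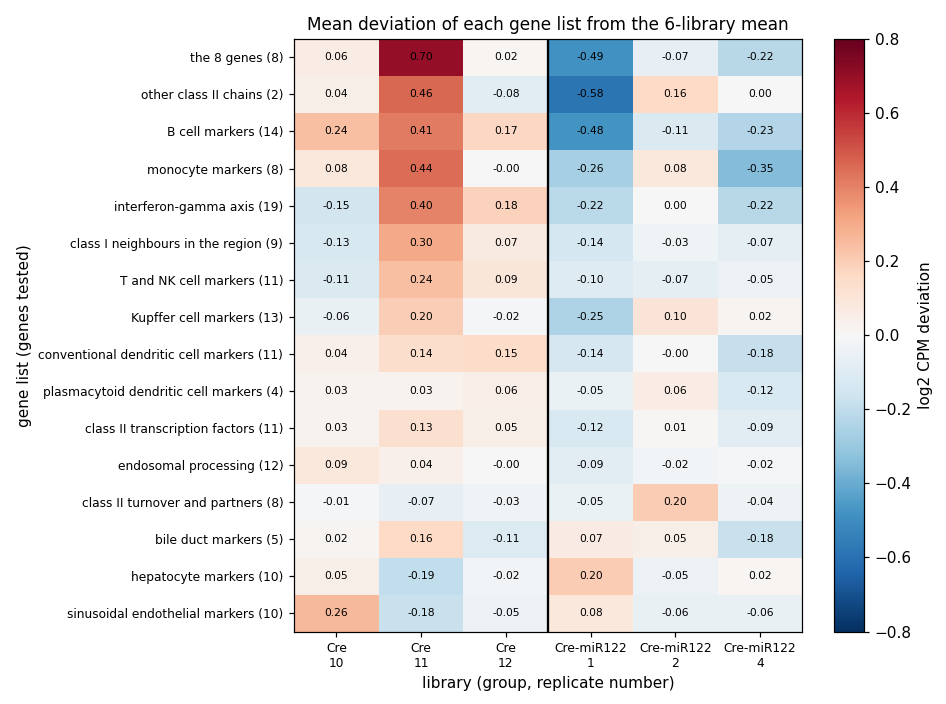
Mean deviation of each gene list from its 6-library average (log2 CPM, color and printed values) in each library, with the number of genes tested in parentheses. The 8 class II genes range from 0.70 in Cre replicate 11 to -0.49 in Cre-miR122 replicate 1, and the B cell markers put the 6 libraries in the same order.

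Outside the 8 genes, the remaining class II chains were few in reads. H2-Ob, the β chain of the H2-DM inhibitor H2-DO, had 43, 75 and 33 counts with Cre and 26, 43 and 40 in the other group (log2 fold change -0.46, SE 0.31, and -0.093 without Cre replicate 11). H2-DMb2 was at -0.14 (SE 0.30), and H2-Oa, H2-Eb2 and H2-Ea-ps had at most 9 counts in a library and were not tested. In the class II region of chromosome 17, between H2-Oa (34092379 to 34095234) and H2-Ea-ps (34342912 to 34347547), 5 of the 8 genes lie among genes of the class I route (mm10). They are H2-DMa (34122719 to 34139101), H2-DMb1 (34153191 to 34160229), H2-Ab1 (34263227 to 34269418), H2-Eb1 (34305867 to 34316674) and, on the minus strand, H2-Aa (34282751 to 34287771). Ciita lies on chromosome 16 (10480014 to 10528606), where 1.57% of its exonic bases overlap Dexi on the other strand, and Ctss on chromosome 3 (95526786 to 95556405). Among the class I neighbours, Psmb9 and Psmb8, subunits of the immunoproteasome, were at -0.30 (SE 0.16) and -0.24 (SE 0.17), and the peptide transporter genes Tap1 and Tap2 at -0.29 (SE 0.13) and -0.094 (SE 0.077). Brd2, a chromatin reader next to H2-DMa, was at -0.12 (SE 0.13). All 9 class I and neighbour genes on that list lay below 0, with a median of -0.15, and none was called. H2-K1 and H2-D1, the class I heavy chains, were at -0.12 (SE 0.13) and -0.15 (SE 0.11), and B2m, their light chain, at -0.17 (SE 0.11). Of the list, H2-K1, H2-D1 and Tapbp (-0.11, SE 0.11) lie on chromosome 17 outside the stretch from H2-Oa to H2-Ea-ps. B2m lies on chromosome 2. Without Cre replicate 11 the median of this list was -0.058, and H2-K1 and Brd2 turned to 0.021 and 0.048.

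**Figure D4:**
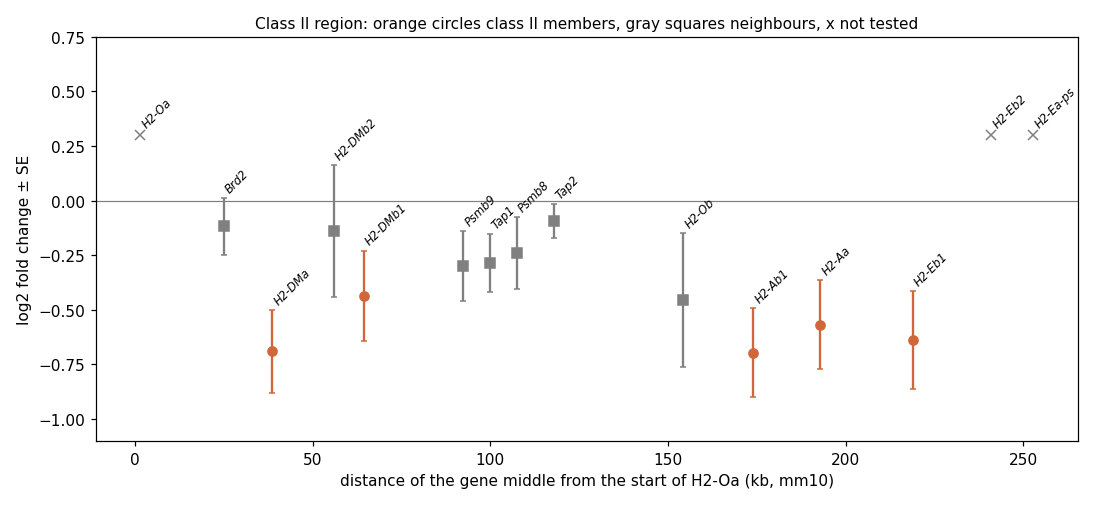
Log2 fold change (Cre-miR122 minus Cre, ± SE, edgeR) of genes in the class II region by the distance of their middle from the start of H2-Oa in kilobases, with the class II genes described here as orange circles and neighbours as gray squares. Crosses mark genes with too few counts to be tested and carry no value on the vertical axis. The 5 orange genes lie between -0.70 and -0.44, and the neighbours tested between -0.46 (H2-Ob) and -0.094 (Tap2).

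Among the other genes of the pathway edgeR called none. Of 11 transcription factors of class II promoters and of antigen-presenting cells 8 lay below 0, with a median of -0.11. The NF-Y subunit genes Nfyb and Nfyc were at 0.0094 (SE 0.11) and -0.018 (SE 0.10). Spi1, a factor of myeloid and B cells, was at -0.30 (SE 0.15), Irf4 at -0.37 (SE 0.29) and Irf1, which answers to interferon, at -0.17 (SE 0.10). Of 12 genes of endosomal processing 7 lay below 0, with a median of -0.072. Among them the cathepsin genes Ctsb, Ctsl and Ctsh, abundant here at 154, 219 and 126 RPKM, were at 0.024 (SE 0.10), 0.036 (SE 0.11) and 0.020 (SE 0.086). Ctsz was at -0.25 (SE 0.12) and Mif, a ligand of CD74, at -0.27 (SE 0.16). Of 8 genes of class II turnover and partners 3 lay below 0, with a median of 0.081. March8, a ligase that removes class II from the surface, was at 0.18 (SE 0.12), Cd86 at -0.11 (SE 0.15), Cd83 at 0.37 (SE 0.35) and Cd80 at 0.31 (SE 0.37).

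Of 19 tested genes of the interferon-gamma axis 15 lay below 0 and none was called, with a median of -0.32, or -0.16 without Cre replicate 11. Igtp, an interferon-induced GTPase, ran from 31.1 to 82.8 CPM in the Cre group and from 31.04 to 34.3 CPM in the Cre-miR122 group, with a log2 fold change of -0.81 (SE 0.28) and of -0.43 without Cre replicate 11. Cxcl10, a chemokine gene, had 70, 92 and 92 counts with Cre and 38, 60 and 59 with Cre-miR122, with no overlap (-0.69, SE 0.21). The receptor gene Ifngr1 was at -0.12 (SE 0.13), Irgm1 at -0.23 (SE 0.13) and Iigp1 at -0.11 (SE 0.11). In this list Cre replicate 10 lay at -0.15, below Cre-miR122 replicate 2 at 0.0016, so its order of libraries differed from that of the class II genes.

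Markers of cells that make class II moved with the 8 genes to different degrees, and their part in the result was not tested. In bulk tissue, fewer cells of a type and less RNA per cell cannot be told apart. B cell markers, a list in which no gene was at 0 in all libraries, summed to 47.4 to 59.0 CPM in the Cre group against 29.3 to 39.2 CPM with Cre-miR122. All 14 lay below 0, with a median of -0.57, or -0.47 without Cre replicate 11, and for 9 of 14 the groups did not overlap, with or without that library (5.44% and 8.79% of all genes). Fcmr, the IgM receptor gene, was at -1.25 (SE 0.27), and the antigen receptor chain genes Cd79a and Cd79b at -0.46 (SE 0.17) and -0.55 (SE 0.17). Cd37, a tetraspanin of B cells, was at -0.59 (SE 0.15). The B cell list was known to be lower from earlier results of this comparison and adds no independent evidence.

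Conventional dendritic cell markers overlapped between the groups in sum, at 90.7 to 92.8 CPM in the Cre group against 74.5 to 97.9 CPM with Cre-miR122. Sirpa, which macrophages also make, gave most of that sum, at 59.7 ± 2.19 and 58.7 ± 13.1 CPM. All 11 tested lay below 0, with a median of -0.24. Clec9a, which marks cross-presenting dendritic cells, was at -0.026 (SE 0.21) and Batf3, a factor of the same cells, at -0.66 (SE 0.29), from 14 to 34 counts. Plasmacytoid dendritic cell markers had 3 of 4 tested genes below 0 and a median of -0.14, with sums of 20.5 to 25.8 and 18.7 to 22.3 CPM, and Siglech, their best-known marker, had 9 to 19 counts. Monocyte markers had 8 of 8 below 0 and a median of -0.29 (-0.089 without Cre replicate 11), with sums of 61.8 to 70.9 and 51.5 to 65.5 CPM. Ly6c2, a marker of inflammatory monocytes, was at -0.90 (SE 0.43) from 3 to 20 counts, and Lyz2 at -0.060 (SE 0.12). Lyz2 gave most of the monocyte sums, at 38.3 ± 0.283 and 36.7 ± 6.64 CPM.

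Kupffer cells, the resident macrophages of the liver, gave a mixed picture. Of 13 markers 10 lay below 0, with a median of -0.18, or -0.099 without Cre replicate 11, and the sums were 663 to 798 CPM in the Cre group against 556 to 716 CPM with Cre-miR122. Clec4f, a lectin that marks these cells, was at 166 ± 20.4 and 145 ± 9.82 CPM, and Cd5l at 127 ± 17.4 and 108 ± 25.3 CPM (SD, n = 3 each). C1qb, a complement subunit gene, was at 58.6 ± 6.402 and 49.2 ± 2.36 CPM with no overlap. Cd163 went the other way, from 10.04 ± 3.67 to 14.02 ± 0.869 CPM with no overlap, and Adgre1 was at 0.26 (SE 0.18). Sinusoidal endothelial markers, with a median of -0.059, were lower in Cre replicate 11 (-0.18) than in any other library, opposite to the class II genes. T and NK cell markers had a median of -0.21, or -0.062 without Cre replicate 11. Sums were 13.6 to 20.4 CPM in the Cre group against 13.8 to 14.3 CPM with Cre-miR122. Bile duct markers had a median of -0.048 and sums of 62.0 to 73.7 and 63.0 to 77.3 CPM. Spp1 gave most of these sums, at 56.5 ± 5.53 and 57.1 ± 6.68 CPM. Of 5 tested 3 lay below 0, Krt7 at -0.39 (SE 0.30), while Sox9 was at 0.23 (SE 0.27). Hepatocyte markers, with a median of 0.064, were also lowest in Cre replicate 11 (-0.19). No marker of any of these lists was called, and none that had a row in the table was at 0 in all 6 libraries.

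The genes whose library profile was most like the mean of the 8 were sought among 13032 other genes with a mean of at least 1 CPM. Likeness was the root mean square difference in centred log2 CPM over the 6 libraries. The 8 closest were Fam26f, Slamf6, Gzma, AW112010, Coro1a, Gpr137b-ps, Gbp8 and Ifi47, at 0.082 to 0.124, where the median gene stood at 0.387. Slamf6 is a receptor of lymphocytes, Gzma a granzyme of cytotoxic cells and Coro1a a coronin of blood cells, while Gbp8 and Ifi47 are interferon-induced GTPases. Coro1a had a mean of 11.9 CPM in the Cre group against 8.36 CPM in the Cre-miR122 group (log2 fold change -0.51, SE 0.16), and Gbp8 means of 14.6 and 9.05 CPM (-0.69, SE 0.16). Because the mean profile holds the difference between the groups, lower values with Cre-miR122 follow from how these genes were picked. None of the 8 is a class II gene, but of the other class II chains only H2-Ob reached the floor of 1 CPM and could appear. When each gene was instead compared by its deviations from the group means, 0 of these 8 genes were among the closest.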

How the data were processed

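Liver mRNA libraries, 3 per vector, were grouped by their titles. The authors deposited whole-number read counts per gene with exon lengths, made with STAR 2.7.9a and featureCounts 2.0.1 on GRCm38 (mm10), per the submitters' processing notes. How strand and multi-mapping reads were handled is not stated there. A further 5 columns match no labelled sample and were left out.

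Counts were tested over all genes with the edgeR 4.0.16 quasi-likelihood F test in R 4.3.3 (TMM scaling, filterByExpr, group alone, two-sided, Benjamini-Hochberg adjustment, threshold 0.05). Standard errors come from the F statistic. CPM and RPKM use TMM-scaled library sizes, and log2 CPM a prior count of 2. Poisson intervals cover counting error only. DESeq2 1.42.0, limma-voom 3.58.1, other scalings and filters, a term for sex and the omission of each library in turn were alternatives. The fits were tested on simulated counts with the same dispersion for every gene and changes larger than those of the class II genes. That test does not cover differences of the size seen here.

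The 8 genes and the 15 lists beside them were chosen with earlier results of these data known. Named from each list were the 3 genes with the highest RPKM and the 2 with the largest log2 fold change, and all genes of the lists of class II chains and neighbours in the region. One gene picked by this rule is not reported here. No test is given for the 8 genes or for a list. Sequences come from RefSeq (GRCm38.p6), and shared 50-base stretches from GENCODE M21 transcripts.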

Additional observations from a re-analysis of the deposited data

How the results depend on the processing

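All 8 genes stayed below 0 under all 14 alternatives (112 of 112 values). None of those values moved by more than the SD between replicates. When 1 library was left out this held almost by construction, because that SD was taken with the omitted library included. Without Cre replicate 11, Ciita went from -0.47 to -0.039 and Ctss from -0.21 to -0.037, and both counted as unmoved. The median log2 fold change of the 8 genes ran from -0.63 to -0.57 over the scalings, filters and tools. The sex term gave -0.71, as did leaving out Cre replicate 10, the only library with the male pattern. So the sex term, though counted among the 14 alternatives, is no separate check. The median ran from -0.74 to -0.33 when 1 library was left out, the last without Cre replicate 11. Genes called over the whole table were 2 without a filter, 3 with DESeq2 and 0 in the other settings, among them 0 without any 1 library. Genes at an unadjusted p under 0.05 were 1169 without a filter, which tests more genes, and 425 to 1535 when 1 library was left out (467 and 1535 when Cre replicates 11 and 12 were the ones omitted, and 425 when it was Cre-miR122 replicate 4). The cause was not tested. Of the 8 genes with the most similar profile, 4 remained with a mean of at least 5 CPM and 0 with deviations from the group means. By CPM in place of RPKM, 6 of the 8 genes kept their rank of level. No paired analysis was possible because the groups share no replicate number. Depth limits Ciita most, at 18 to 53 counts.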
